A study of Mus musculus with 8 samples.

Results

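Interferon response genes are the genes that cells switch on when they sense type I or type II interferon. A list of 41 such genes was followed through mouse liver RNA. It was written from general knowledge, but earlier results of these data were known when it was chosen. The table of 17164 genes held 39 of the 41. Mx1 and Mx2 were not analysed here, and 38 of the 39 were expressed highly enough to be tested (a length-scaled level of at least 1 FPKM, the fragment count scaled to gene length and library size, in at least 2 libraries). Oas3 was the member that did not pass, with 0.23 to 0.89 FPKM over the 8 libraries.

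The livers came from male C57BL/6 mice in 4 groups of 6, and 2 livers of each group, picked at random, gave 1 library each. Control mice had saline injected at 2 weeks of age. Mice of the other groups had diethylnitrosamine (DEN, 0.67%) by the intraperitoneal route at the same age. From 8 weeks until the end at 22 weeks they were given carbon tetrachloride (CCl4, 20% in olive oil) by the same route, 2 times per week. DEN is a carcinogen that damages hepatocyte DNA, and CCl4 injures hepatocytes and drives fibrosis, so the pair serves as a chemical model of liver cancer. The model group had these agents alone. The other groups also received Diwu Yanggan capsules (DWYG), a herbal preparation, from 17 weeks, at 1 clinical equivalent dose (DWYG-M, the lower dose) or 2 (DWYG-H, the higher dose). Livers given DEN and CCl4, with or without DWYG, are called treated livers here. The labels say neither whether controls received olive oil nor whether tumour or surrounding liver was taken. One library, DWYG-H replicate 2, stood apart in some interferon gamma-type genes, and results that rest on it are also given without it. Libraries held between 17345627 and 19191382 counts. The hepatocyte marker Alb was abundant in every library (29953 to 60316 FPKM, 5.19% to 10.5% of counts). Each group is 2 livers, so every p-value below rests on the spread between 2 libraries per group and on the spread shared over genes.

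Type I interferons (alpha and beta) signal through the receptor pair Ifnar1 and Ifnar2 to a complex that includes Stat2 and Irf9 and binds the interferon-stimulated response element (ISRE) of target promoters. Type II interferon (interferon gamma), made mainly by T and NK cells, signals through Ifngr1 and Ifngr2, and its target promoters often carry the gamma-activated site (GAS). Many genes answer to both. In liver, hepatocytes, macrophages and endothelial cells can all express them. In whole tissue, a change in the number of cells of one type and a change in RNA per cell cannot be told apart.

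Many of the members' promoters hold the letters of these elements. RefSeq promoter windows (mouse assembly GRCm38.p6, which is not the build of the expression table) were read for the 250 bases before each start site. Of the 39 members, 30 had at least 1 window, with 35 windows in all. A gene was counted as matched if any of its windows held a match. ISRE was searched as GAAA, 2 bases of any kind and GAAA again, and GAS as TTCNNNGAA, each on both strands. Matches may overlap. An ISRE match was present in 13 of the 30 members (43.3%), against 3.34% of the 9325 tested genes that had a window and 3.46% of all 27025 genes with one. A GAS match was present in 8 of 30 (26.7%), against 7.34% and 8.13%. Of the 30 members, 4 had both and 13 had neither. A match is a description of letters and not evidence of binding.

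The 4 members printed next had an element and the smallest p-values in the model against control comparison. Matched letters are in capitals, and each window runs 5′ to 3′ on the gene's own strand up to the base before the start site. Oas1a lay at chr5:120907526-120907775 on the minus strand, Psmb8 at chr17:34197945-34198194, Irf8 at chr8:120736108-120736357 and Ifit3 at chr19:34583279-34583528, these 3 on the plus strand.
Oas1a: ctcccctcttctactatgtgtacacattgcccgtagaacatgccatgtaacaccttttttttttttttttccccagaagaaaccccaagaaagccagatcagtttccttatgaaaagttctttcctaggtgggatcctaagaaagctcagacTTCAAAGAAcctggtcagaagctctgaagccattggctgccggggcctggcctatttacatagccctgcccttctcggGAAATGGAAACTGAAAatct
Psmb8: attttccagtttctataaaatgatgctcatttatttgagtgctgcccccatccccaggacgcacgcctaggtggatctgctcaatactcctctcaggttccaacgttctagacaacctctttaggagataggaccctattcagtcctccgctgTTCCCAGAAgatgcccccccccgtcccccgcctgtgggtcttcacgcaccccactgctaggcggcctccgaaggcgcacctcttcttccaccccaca
Irf8: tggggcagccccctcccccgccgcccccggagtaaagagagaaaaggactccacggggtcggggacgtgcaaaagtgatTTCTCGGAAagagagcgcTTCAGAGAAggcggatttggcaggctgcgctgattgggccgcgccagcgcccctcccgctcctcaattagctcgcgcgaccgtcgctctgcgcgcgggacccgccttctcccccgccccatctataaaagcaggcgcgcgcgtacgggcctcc
Ifit3: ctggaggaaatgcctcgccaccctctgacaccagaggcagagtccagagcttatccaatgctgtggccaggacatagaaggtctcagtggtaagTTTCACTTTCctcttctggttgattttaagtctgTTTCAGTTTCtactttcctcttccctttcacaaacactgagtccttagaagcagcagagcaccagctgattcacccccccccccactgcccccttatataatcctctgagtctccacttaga
Oas1a carried 2 overlapping ISRE matches whose first bases were 20 and 14 bases before the start and a GAS match 98 bases before it. Psmb8 had a single GAS match at 97 bases, and Irf8 had GAS matches at 171 and 153 bases. Another window of Irf8, not printed, held no match. Ifit3 had ISRE matches on the opposite strand at 156 and 122 bases.

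Shorter stretches are shown for the interferon-induced GTPases, because most of them were highest in a single library that is described further on, and for Isg15, whose window held 3 overlapping matches. These were chosen after their values were seen. All 5 GTPase members with a window had an ISRE match, though another window of Gbp3 held none.
Gbp2, chr3:142620599-142620618, plus strand: tttagTTTCACTTTCactgt
Gbp3, chr3:142559994-142560019, plus strand: cacagTTTCAGTTTCTATTTCccaga
Gbp7, chr3:142530278-142530297, plus strand: tgcagTTTCAGTTTCagttc
Igtp, chr11:58199517-58199536, plus strand: gaactGAAACTGAAAgctgt
Irgm1, chr11:48871430-48871455, minus strand: ttcaaGAAATAGAAACCGAAActgat
Isg15, chr4:156200870-156200901, minus strand: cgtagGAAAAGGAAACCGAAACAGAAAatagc
Gbp2, Gbp3 and Gbp7 carried the element in its reverse orientation, and Igtp, Irgm1 and Isg15 in its forward orientation. Igtp also held a GAS match, gccatTTCTAGGAActgaa (chr11:58199506-58199524), whose flank runs into the ISRE.

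A subset of the interferon response genes was higher in the livers given DEN and CCl4 alone than in control livers. The called genes were 4 sensors, 3 of the oligoadenylate synthetase family, 3 other interferon-induced proteins, 2 transcription factors, Ubd, Usp18 and Psmb8, and none was a GTPase. In the edgeR quasi-likelihood test with Benjamini-Hochberg adjustment over 11606 genes, 15 of the 38 members rose and 0 fell at an adjusted p under 0.05. That is 39.5% of members, where 15.1% of all tested genes rose and 7.12% fell. The median log2 fold change was 0.63 over the members and -0.01 over all genes tested, and 33 of 38 members had a positive value. Both model libraries lay above both controls in FPKM for 31 of 38 members, which was also so for 47.1% of all genes tested. Major urinary protein (Mup) genes took 15.3% and 15.4% of the control counts, against 0.563% to 3.5% elsewhere. On a log2(FPKM + 1) scale the median gene was 0.21 higher in model than in control, so FPKM differences are to be read against that shift and the log2 fold changes below are from the counts.

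**Figure D1:**
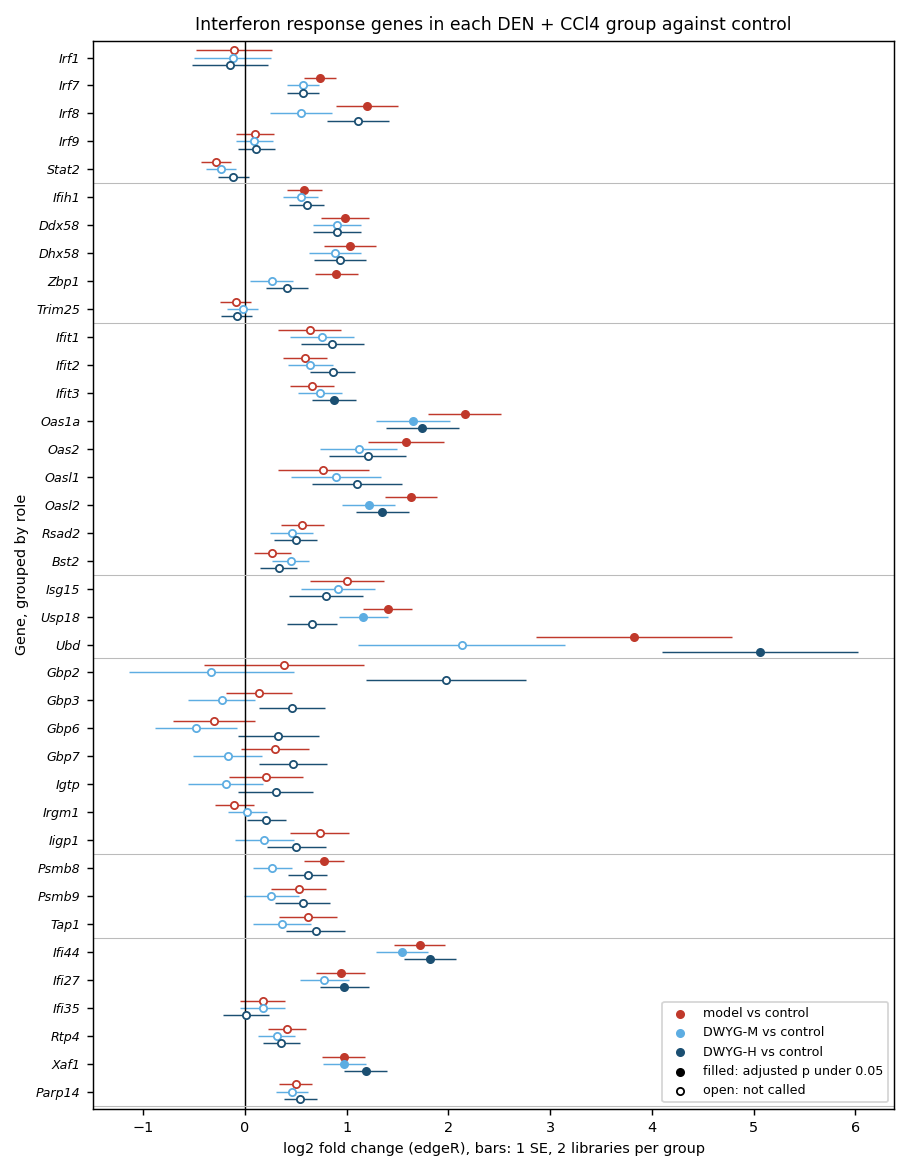
Log2 fold change with its standard error (x axis) for each tested interferon response gene (y axis, grouped by role) in model, DWYG-M and DWYG-H against control, from edgeR over 2 libraries per group. Oas1a, Oasl2, Ifi44 and Xaf1 passed an adjusted p of 0.05 in all 3 comparisons, and no GTPase passed in any of them.

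Among the transcription factors, 2 of 5 rose. Irf7, the factor that amplifies type I interferon production, measured 15.9 and 14.6 FPKM in the control livers, 30.7 and 30.5 in the model livers, 23.6 and 28.9 at the lower DWYG dose and 25.1 and 27.7 at the higher dose. Every library given DEN and CCl4 was above both controls, the log2 fold change in model was 0.74 (SE 0.16) and the edgeR adjusted p was 0.0154. Irf8, a factor of macrophages and dendritic cells that also answers to interferon gamma, measured 2.72 and 2.26 FPKM in the control livers, 6.44 and 7.3 in the model livers, 4.09 and 4.37 at the lower DWYG dose and 4.21 and 8.27 at the higher dose. The controls were again lowest and DWYG-H replicate 2 highest, with a log2 fold change of 1.20 in model (edgeR adjusted p = 0.0271). Irf9 (log2 fold change 0.10) and Stat2 (-0.28, edgeR adjusted p = 0.214), both parts of the ISRE-binding complex, and Irf1 (-0.11), an early factor of the interferon gamma response, were not called. Stat2 varied least of the 5, between 10.5 and 13.7 FPKM.

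Sensors of viral nucleic acid rose in 4 of 5 cases. Ifih1 (MDA5), which senses long double-stranded RNA, measured 5.28 and 5.24 FPKM in the control livers, 9.74 and 9.5 in the model livers, 8.27 and 9.49 at the lower DWYG dose and 10.2 and 8.09 at the higher dose. Ddx58 (RIG-I), which senses RNA ends, measured 3.63 and 4.22 FPKM in the control livers, 7.73 and 10.9 in the model livers, 8.78 and 8.33 at the lower DWYG dose and 8.15 and 8.97 at the higher dose. Dhx58 (LGP2), the third helicase of that family, measured 2.54 and 2.93 FPKM in the control livers, 5.49 and 7.85 in the model livers, 5.85 and 5.93 at the lower DWYG dose and 6.18 and 5.95 at the higher dose. For each of the 3 the lowest of the 6 treated livers stood above the higher control. Their log2 fold changes in model were 0.58, 0.99 and 1.03, with edgeR adjusted p-values of 0.0446, 0.0223 and 0.0248. Zbp1, a sensor of Z-form nucleic acid that can trigger necroptosis, measured 6.49 and 7.3 FPKM in the control livers, 14.1 and 13.7 in the model livers, 10.4 and 8.91 at the lower DWYG dose and 10.6 and 9.61 at the higher dose. It was highest in the 2 model livers, intermediate in the 4 DWYG livers and lowest in the controls, and rose by 0.90 (SE 0.21, edgeR adjusted p = 0.0206). Trim25, the ubiquitin ligase that activates RIG-I, ranged only from 16.6 to 21.6 FPKM and had a log2 fold change of -0.09.

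Antiviral effectors that act on RNA or virus particles rose in 3 of 9 tested cases, all of them oligoadenylate synthetases, which make the second messenger that activates RNase L, or their relatives. Oas1a measured 1.94 and 2.24 FPKM in the control livers, 9.05 and 15.1 in the model livers, 9.59 and 7.14 at the lower DWYG dose and 9.95 and 7.51 at the higher dose. Model replicate 2 was the highest library and every treated liver exceeded 7 FPKM while controls stayed near 2. The log2 fold change was 2.16 (SE 0.36, edgeR adjusted p = 0.00612). Oasl2 measured 1.13 and 1.66 FPKM in the control livers, 5.09 and 5.42 in the model livers, 3.6 and 4.11 at the lower DWYG dose and 4.01 and 4.34 at the higher dose, with the 2 model livers highest, the DWYG livers next and controls lowest. It rose by 1.63 (SE 0.26, edgeR adjusted p = 0.00494). Oas2 was scarcer, at 0.61 and 0.34 FPKM in the control livers, 2.34 and 1.23 in the model livers, 1.5 and 0.97 at the lower DWYG dose and 1.61 and 1.09 at the higher dose, and its treated libraries did not overlap the controls (log2 fold change 1.58, edgeR adjusted p = 0.0220).

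For the interferon-induced tetratricopeptide proteins, which bind foreign RNA, values were higher in treated livers but did not pass the test in model. Ifit3 measured 4.3 and 3.93 FPKM in the control livers, 7.6 and 8.03 in the model livers, 6.47 and 9.46 at the lower DWYG dose and 8.68 and 8.84 at the higher dose. All 6 treated libraries were above the controls, and the highest was DWYG-M replicate 2. Ifit1, Ifit2 and Ifit3 had log2 fold changes of 0.64, 0.59 and 0.66 in model, and none was called (edgeR adjusted p from 0.0661 to 0.188). The same held for Rsad2 (viperin, 0.57), Oasl1 (0.77) and the virus-tethering protein Bst2 (0.27). Bst2 was among the most abundant members, at 130.5 to 226.6 FPKM.

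Of the ubiquitin-like group, 2 of 3 rose. Usp18, the protease that removes Isg15 from proteins and damps the type I receptor, measured 3.63 and 3.83 FPKM in the control livers, 9.87 and 13.7 in the model livers, 9.35 and 10.1 at the lower DWYG dose and 6.4 and 7.29 at the higher dose. Model replicate 2 was the highest library, all treated livers exceeded both controls, and the log2 fold change was 1.40 (SE 0.24, edgeR adjusted p = 0.00685). Ubd (FAT10), a ubiquitin-like modifier induced by interferon gamma and tumour necrosis factor, measured 1 and 0.85 FPKM in the control livers, 13.6 and 17.8 in the model livers, 5.23 and 4.27 at the lower DWYG dose and 8.36 and 64.1 at the higher dose. It spanned the widest range of any tested member, 75.4-fold between control replicate 2 and DWYG-H replicate 2, and rose in model by 3.83 (SE 0.96, edgeR adjusted p = 0.0266). Isg15 itself, the modifier, measured 8.89 and 10.7 FPKM in the control livers, 16.03 and 30.2 in the model livers, 22.1 and 21.5 at the lower DWYG dose and 21.9 and 17.7 at the higher dose. Its model libraries were far apart (16.03 and 30.17), and the log2 fold change of 1.00 was not called (edgeR adjusted p = 0.0856).

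**Figure D2:**
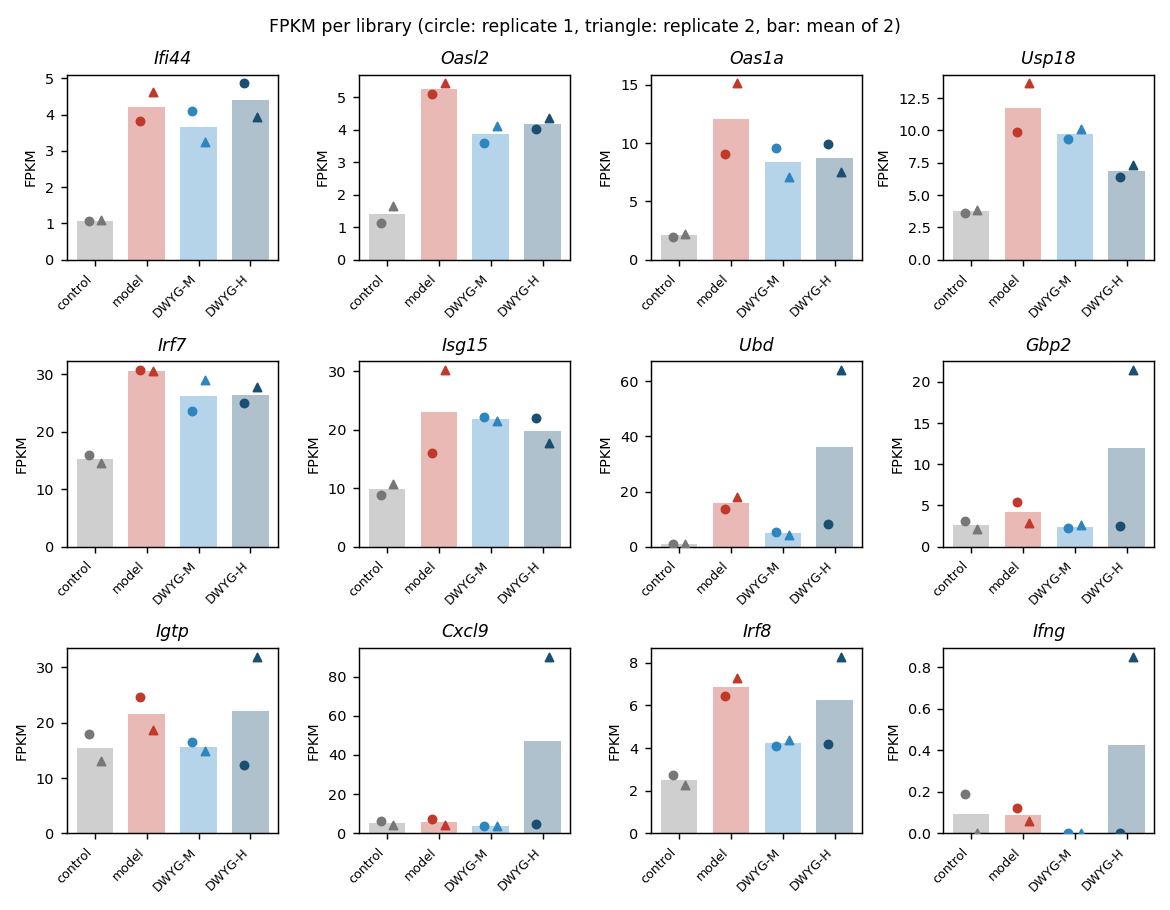
FPKM (y axis) in each of the 8 libraries (points, with bars at the mean of 2) by group (x axis) for selected interferon response genes and for Cxcl9 and Ifng. Ifi44, Oasl2 and Oas1a were above both controls in all 6 treated livers, and Ubd and Gbp2 were highest in DWYG-H replicate 2, at 64.1 and 21.4 FPKM.

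The GTPase members gave 0 calls of 7 and a median log2 fold change of 0.21 in model against control. Iigp1 (Irga6) had the largest value, 0.74 (edgeR adjusted p = 0.109), with 165 and 87.8 FPKM in the control livers, 277 and 228 in the model livers, 164 and 167 at the lower DWYG dose and 240.3 and 171 at the higher dose. Gbp2 measured 3.08 and 2.17 FPKM in the control livers, 5.46 and 2.91 in the model livers, 2.22 and 2.6 at the lower DWYG dose and 2.55 and 21.4 at the higher dose (log2 fold change 0.38, edgeR adjusted p = 0.769), so that 7 libraries lay between 2.17 and 5.46 and 1 stood far above. Gbp3 measured 3.5 and 2.67 FPKM in the control livers, 5.09 and 3.2 in the model livers, 2.67 and 3.51 at the lower DWYG dose and 3.3 and 6.43 at the higher dose and had a log2 fold change of 0.14. Gbp6 (-0.31), Gbp7 (0.30), Igtp (0.21) and Irgm1 (-0.11) completed the family, and both model livers exceeded both controls only for Iigp1 and Igtp among the 7. With 7 genes and 2 libraries per group, these values do not show that the GTPases differ from the other members in their response.

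Of the antigen processing genes, 1 of 3 rose. Psmb8, a catalytic subunit of the immunoproteasome, measured 23.7 and 23.1 FPKM in the control livers, 48.5 and 47.9 in the model livers, 32.2 and 33.5 at the lower DWYG dose and 33.9 and 49.5 at the higher dose, with a log2 fold change of 0.78 in model (edgeR adjusted p = 0.0250). The model livers and DWYG-H replicate 2 formed the upper end, and the other DWYG livers lay between these and the controls. Its partner Psmb9 (0.53, edgeR adjusted p = 0.198) and the peptide transporter Tap1 (0.62, edgeR adjusted p = 0.166) were not called.

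The remaining proteins, less well defined in function, rose in 3 of 6 cases. Ifi44 measured 1.07 and 1.08 FPKM in the control livers, 3.83 and 4.61 in the model livers, 4.09 and 3.25 at the lower DWYG dose and 4.86 and 3.93 at the higher dose. Its 6 treated libraries lay between 3.25 and 4.86, far from both controls, and its adjusted p was the smallest of all members (log2 fold change 1.72, SE 0.25, edgeR adjusted p = 0.00382). Ifi27, a mitochondrial protein and the most abundant called member, measured 119 and 143 FPKM in the control livers, 254 and 335 in the model livers, 273 and 250.4 at the lower DWYG dose and 317 and 275 at the higher dose (log2 fold change 0.94, edgeR adjusted p = 0.0282). Xaf1, which antagonizes the apoptosis inhibitor XIAP, measured 1.12 and 1.93 FPKM in the control livers, 3.7 and 4.35 in the model livers, 3.17 and 3.01 at the lower DWYG dose and 3.68 and 4.62 at the higher dose (log2 fold change 0.97, edgeR adjusted p = 0.0164). For each of the 3, all treated livers were above both controls. Parp14, an ADP-ribosyltransferase, had a log2 fold change of 0.50 (edgeR adjusted p = 0.0599), Rtp4, an interferon-induced chaperone of receptors, 0.42, and Ifi35 0.17.

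How firmly these calls stood differed by gene. Ifi44 and Oasl2 were called under each of 13 alternatives, including those that left out 1 library (edgeR adjusted p up to 0.0357 and 0.0311). Oas1a and Usp18 lost their call only without control replicate 1 (edgeR adjusted p = 0.0501 and 0.0519). Another 10 calls (Irf7, Irf8, Ifih1, Ddx58, Dhx58, Zbp1, Ubd, Psmb8, Ifi27 and Xaf1) were lost without control replicate 1, control replicate 2 or model replicate 2. Of these, Ifih1 was lost in 4 more alternatives that leave out no library, and Ddx58, Dhx58, Zbp1, Ifi27 and Xaf1 in 1 each. Oas2 was lost without either control or without model replicate 1. The number of members called was 2 without control replicate 1, 4 without control replicate 2, 18 without model replicate 1 and 5 without model replicate 2.

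Set by call, an ISRE match was found in 1 of the 10 called members with a window (Oas1a) and in 12 of the 20 other members with one. GAS matches were found in 3 of 10 and 5 of 20. Of the 5 sensors 3 had a window, and none of these held an exact match to either pattern, the only form searched.

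Beyond the members, the wider pathway was read from lists of its parts. Of 21 interferon genes listed, 3 were in the table, and none passed the filter. Ifnb1 was at 0 except for 1 read in DWYG-H replicate 1. Ifng had 0 to 3 reads in 7 libraries and 14 in DWYG-H replicate 2. Of the receptor chains, 3 of 5 tested rose in model (60%, against 15.1% of all genes tested). Ifngr1, the ligand-binding chain for interferon gamma, measured 13.6 and 10.4 FPKM in the control livers, 36.7 and 50 in the model livers, 34.95 and 24.1 at the lower DWYG dose and 38.7 and 33.2 at the higher dose, and every treated liver was above both controls (log2 fold change 1.61, SE 0.27, edgeR adjusted p = 0.00593). Il10rb, shared by the lambda interferon and interleukin 10 receptors, rose by 1.11 (edgeR adjusted p = 0.00427) and Ifngr2 by 0.67 (edgeR adjusted p = 0.0373). The type I receptor chains were not called, with 0.33 for Ifnar1 and -0.02 for Ifnar2 (edgeR adjusted p = 0.213 and 0.923), and Ifnlr1 was below the filter.

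In the lists that follow, shares are to be read against the 15.1% of all genes tested that rose and the 7.12% that fell. Among signal transducers 2 of 13 rose (15.4%, near that of all genes) and 0 fell, namely Nlrc5, the transactivator of MHC class I (0.73, edgeR adjusted p = 0.0280), and Stat3 (0.55, edgeR adjusted p = 0.0283). Irf3 had a value of -0.36 (edgeR adjusted p = 0.136). Among brakes on the pathway 2 of 18 rose (11.1%), Irf2bp2 (1.81, edgeR adjusted p = 0.0303) and the ubiquitin editor Tnfaip3 (2.74, edgeR adjusted p = 0.0311, with 11.8 and 1.91 FPKM in the 2 model livers), while Socs3 and Socs1, inhibitors of JAK kinases, were not called (1.35 and 1.54, edgeR adjusted p = 0.0637 and 0.361). Of 20 other sensors and adapters, 3 rose and 1 fell (15% and 5%, again near all genes). The DNA sensor Aim2 rose by 1.82 (edgeR adjusted p = 0.00945) and the DNA sensing adapter Sting1 by 1.34 (edgeR adjusted p = 0.0241), whereas Mavs, the mitochondrial adapter of RIG-I and MDA5, fell by 0.67 (edgeR adjusted p = 0.0350). Cgas, which makes the ligand of Sting1, was below the filter, at 0.15 in both controls.

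Of 74 other interferon-induced effectors tested, 23 rose and 1 fell (31.1% and 1.35%). Ly6e measured 78.9 and 82.2 FPKM in the control livers, 359 and 415 in the model livers, 308 and 299 at the lower DWYG dose and 284 and 317 at the higher dose, a rise of 2.00 in model (SE 0.21, edgeR adjusted p = 0.00121). The controls stood well apart from all treated livers. Ifi27l2b, a relative of Ifi27, measured 2.23 and 3.91 FPKM in the control livers, 92.2 and 193 in the model livers, 122 and 57.7 at the lower DWYG dose and 117 and 67.2 at the higher dose (log2 fold change 5.30, edgeR adjusted p = 0.00194), and Slfn9 rose by 2.10 (edgeR adjusted p = 0.00179). The chemokines Cxcl10 (2.39, edgeR adjusted p = 0.120) and Cxcl9 (-0.14, edgeR adjusted p = 0.938), which attract activated T cells, were not called. Of 14 other interferon-induced GTPases, 0 rose and 2 fell, Gbp2b (-2.55, edgeR adjusted p = 0.0424) and Gm4951 (-0.93, edgeR adjusted p = 0.0467), and the next smallest p was that of Gbp9 (0.57, edgeR adjusted p = 0.171). Of 20 MHC class I and proteasome genes, 4 rose and 1 fell (20% and 5%), and the smallest p-values were those of H2-Q4 (1.08, edgeR adjusted p = 0.00608), H2-T22 (0.74, edgeR adjusted p = 0.0232) and H2-Q6 (1.14, edgeR adjusted p = 0.0385).

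Some lists of cell type markers were also higher in model, where 15.1% of all genes tested rose, and others were not. Of 11 macrophage and monocyte markers, 7 rose in model (63.6%) and 0 fell. Their summed level was 108 to 152 FPKM in control, 328 to 509 in model, 234 to 248 in DWYG-M and 390 to 412 in DWYG-H. Lyz2 gave most of this sum in DWYG-H (285 of 390 FPKM in replicate 1 and 314 of 412 in replicate 2). Both DWYG-M libraries lay below both model libraries for 9 of the 11 markers, against 25.6% of all genes. Both DWYG-H libraries did so for 6, against 23.2%. Of 8 Kupffer cell markers 0 rose and 2 fell, with a median log2 fold change of -0.54. Conventional dendritic cell markers summed to 3.08 to 4.56 FPKM in control, 8.17 to 8.77 in model, 6.59 to 7.15 in DWYG-M and 6.86 to 12.3 in DWYG-H, with 2 of 5 tested called higher in model. Markers of plasmacytoid dendritic cells, a source of type I interferon, summed to 1.87 to 3.36 FPKM in control, 7.12 to 18.1 in model, 4.2 to 5.03 in DWYG-M and 6.91 to 7.09 in DWYG-H once Ly6d, which dominated that list and was its 1 called gene of 3 tested, was left out. Of the T and NK cell markers 0 of 5 tested were called, and Eomes was at 0 in both controls. Of the other lists, 3 of 4 tested neutrophil markers rose (75%), as did 2 of 4 for B and plasma cells (50%), 5 of 6 for cholangiocytes (83.3%), 6 of 9 for stellate cells and fibroblasts (66.7%) and 2 of 10 for endothelial cells (20%), with 0 of 10 for hepatocytes, and none of these fell. The part of these cells in the rise of the interferon response genes was not tested.

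**Figure D3:**
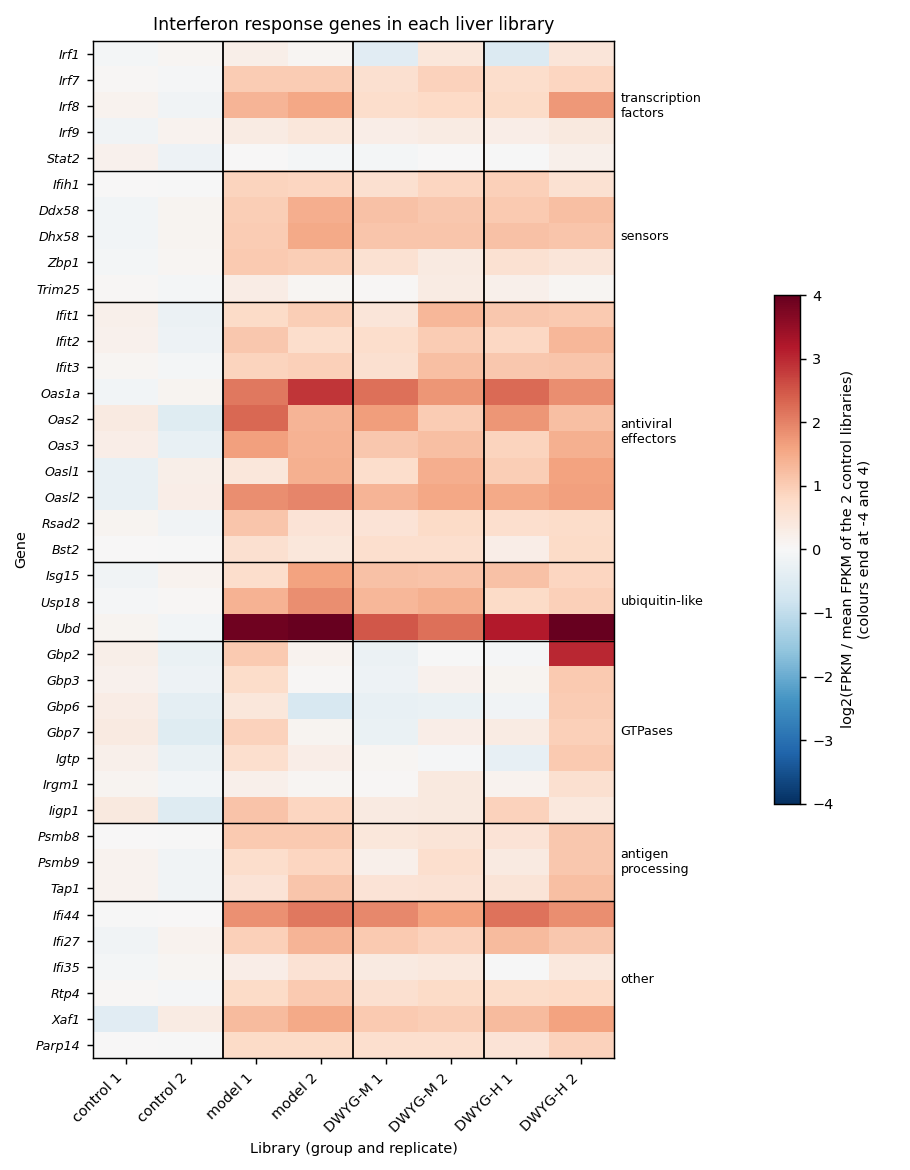
Level of each interferon response gene (y axis, grouped by role) in each library (x axis) as log2(FPKM) relative to the control mean. Colours end at 4 in either direction, and Ubd in model replicate 2 and DWYG-H replicate 2 lay beyond. The column of DWYG-H replicate 2 is the highest for 18 of 38 tested members.

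Whether DWYG changed these genes in livers given DEN and CCl4 was asked by comparing each dose with the same 2 model libraries. In DWYG-M, 0 of 38 members were called by edgeR (0 by DESeq2), as were 0.00862% of all genes tested. At an unadjusted p under 0.05, 0 members were higher and 2 lower, against 5.43% and 7.22% of all genes. The median log2 fold change was -0.15 over the members and -0.02 over all genes. Both DWYG-M libraries lay below both model libraries in FPKM for 14 members and above for 1, where 25.6% and 13.5% of all genes did. The smallest p-values were those of Zbp1 (-0.64, 95% confidence interval without adjustment -1.11 to -0.16, edgeR adjusted p = 0.294), Psmb8 (-0.51, interval -0.95 to -0.07, adjusted p = 0.355), Irf8 (-0.65, adjusted p = 0.410) and Ubd (-1.70, interval -3.5 to 0.11, adjusted p = 0.414). For the genes with the firmest rise in model, the interval ran from -0.71 to 0.37 for Ifi44, from -0.97 to 0.15 for Oasl2 and from -1.28 to 0.26 for Oas1a. These intervals include no change, further rises above model and falls of part of the rise over control.

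In DWYG-H, 0 of 38 members were called against model by edgeR and 0 by DESeq2, and 0% of all genes tested were called by edgeR. At an unadjusted p under 0.05, 0 members were higher and 2 lower, against 3.5% and 4.99% of all genes. The median log2 fold change was 0.03. The 4 smallest p-values belonged to Usp18 (-0.74, 95% interval -1.28 to -0.20, edgeR adjusted p = 0.465), Zbp1 (-0.48, interval -0.96 to -0.01, adjusted p = 0.578), Gbp2 (1.59, interval -0.17 to 3.35, adjusted p = 0.614) and Ubd (1.24, interval -0.43 to 2.90, adjusted p = 0.695). Without DWYG-H replicate 2 the values of Gbp2 and Ubd turned to -0.61 and -0.86, the median over members was -0.13 and 0 were called. Both DWYG-H libraries lay below both model libraries for Irf7, Zbp1, Oasl2 and Usp18 (4 members, against 23.2% of all genes) and above them for Ifit1 and Ifit3 (2 members, against 10.6%). The interval for Ifi44 was -0.43 to 0.64 and for Oasl2 -0.84 to 0.28.

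**Figure D4:**
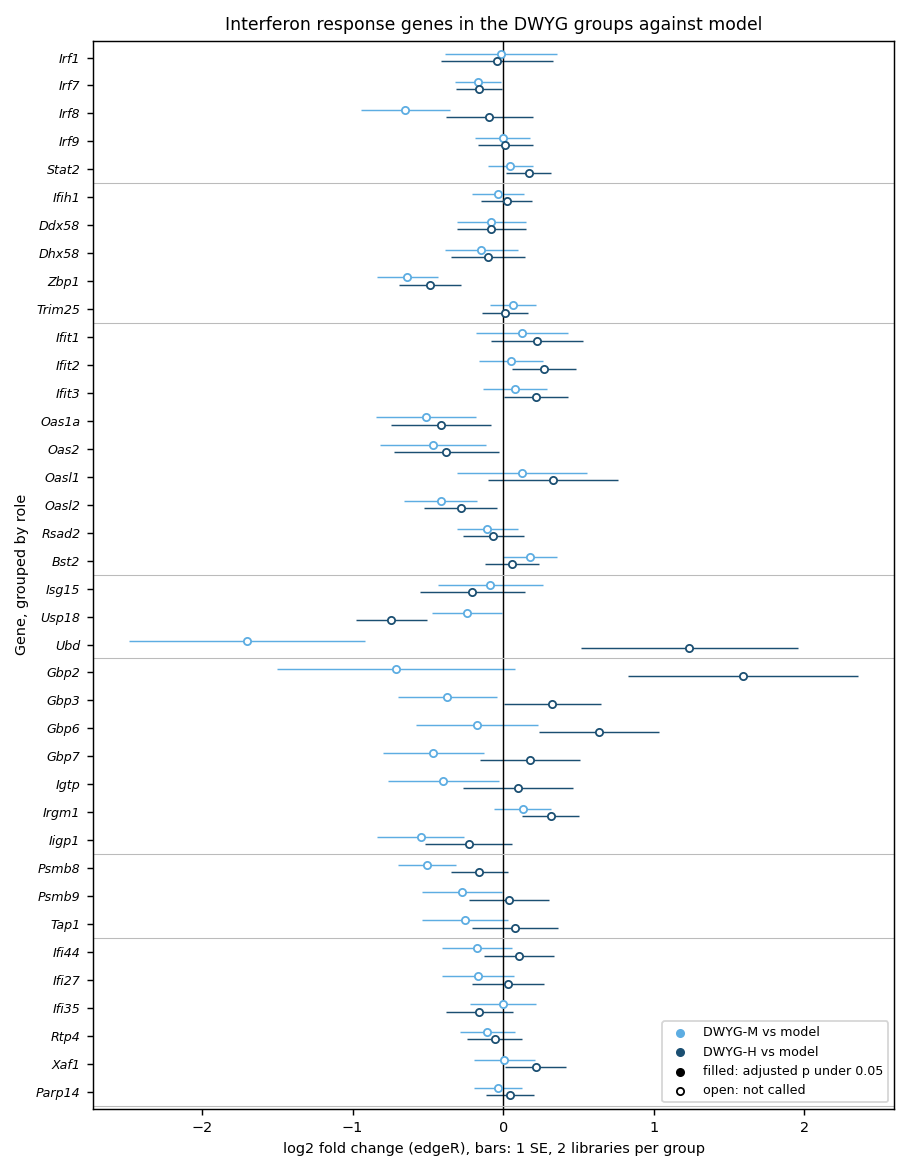
Log2 fold change with its standard error (x axis) of each tested interferon response gene (y axis) in DWYG-M and DWYG-H against model, from edgeR over 2 libraries per group. No gene passed an adjusted p of 0.05 at either dose, and the widest bars are those of Gbp2 and Ubd.

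The doses were also compared with each other. Of 38 members, 0 were called between DWYG-H and DWYG-M (0% of all genes), and at an unadjusted p under 0.05, 2 were higher in DWYG-H, against 1.15% of all genes, and 0 were lower, against 0.517%. These were Ubd (2.93, SE 0.79, edgeR adjusted p = 1) and Gbp2 (2.31, SE 0.79), followed by Usp18 (-0.50) and Gbp3 (0.70). All 7 GTPases had a positive value, with a median of 0.64. Without DWYG-H replicate 2, 5 of the 7 were positive, with a median of 0.15 and a range from -0.32 to 0.56. In that fit the values of Ubd and Gbp2 were 0.84 and 0.098, and the median over all members was 0.03 in place of 0.14. Without DWYG-H replicate 1, Ubd was called (3.75, edgeR adjusted p = 0.0310), which rests on 1 DWYG-H library assumed to vary like the others.

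Each dose was set against control as well, with the same 2 control libraries as for model. In DWYG-M, 5 members were called higher and 0 lower by edgeR, against 4.35% and 0.603% of all genes: Ifi44 (1.54, adjusted p = 0.0165), Usp18 (1.16, adjusted p = 0.0357), Oasl2 (1.22, adjusted p = 0.0378), Xaf1 (0.98, adjusted p = 0.0410) and Oas1a (1.65, adjusted p = 0.0426). In DWYG-H, 7 were called higher and 0 lower, against 6.59% and 1.09% of all genes: Ifi44 (1.82, adjusted p = 0.00752), Xaf1 (1.19, adjusted p = 0.0165), Ubd (5.06, adjusted p = 0.0199), Oasl2 (1.35, adjusted p = 0.0204), Oas1a (1.75, adjusted p = 0.0273), Ifi27 (0.98, adjusted p = 0.0490) and Ifit3 (0.88, adjusted p = 0.0498). Leaving out 1 library brought the counts to between 0 and 1 in DWYG-M and between 0 and 4 in DWYG-H. Without DWYG-H replicate 2, 2 members were called, Ifi44 (1.98, adjusted p = 0.0205) and Ubd (2.97, adjusted p = 0.0163). The 15 genes called in model were chosen on the same model and control libraries that the DWYG groups are set against here. The DWYG-M mean FPKM lay between the control and model means for 15 of them. The DWYG-H mean lay between for 11 and above model for 4 (Ubd, Ifi44, Ifi27 and Xaf1). In DWYG-H replicate 1 alone, 12 lay between and 3 above (Ifih1, Ifi44 and Ifi27). The FPKM of every DWYG library was above both controls for all 15. Over all genes tested, both libraries exceeded both controls for 49.2% in DWYG-M and 46.9% in DWYG-H. The 15 were chosen for being high in model against these same control libraries, so these shares are not a like comparison. The share among all genes called higher in model was not computed. An effect of DWYG cannot be read from the counts for the 15.

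DWYG-H replicate 2 stood apart from the other 7 libraries in a subset of members. It was the highest library for 18 of 38 members (47.4%) and for 9.57% of all genes tested. Any margin counts here, and some were near ties. Irf1 measured 24.81 against 24.61 FPKM in DWYG-M replicate 2, and Psmb8 49.5 against 48.46 in model replicate 1. By role DWYG-H replicate 2 was highest for 6 of 7 GTPases, 3 of 3 antigen processing genes and 3 of 5 transcription factors, but for 0 of 5 sensors. Its FPKM was over 2 times that of DWYG-H replicate 1 for 5 of 38 members (13.2%, against 2.02% of all genes), which were Gbp2 (8.40-fold), Ubd (7.67-fold), Igtp (2.57-fold), Gbp6 (2.21-fold) and Irf1 (2.05-fold). The median ratio was 1.95 over the GTPases, 1.63 over the antigen processing genes, 0.92 over the sensors and 1.02 over all genes. Igtp measured 18.01 and 13.01 FPKM in the control livers, 24.6 and 18.6 in the model livers, 16.5 and 14.9 at the lower DWYG dose and 12.4 and 31.9 at the higher dose. Irf1 measured 16.8 and 18.9 FPKM in the control livers, 21.1 and 18.8 in the model livers, 13.04 and 24.6 at the lower DWYG dose and 12.1 and 24.8 at the higher dose. Both had their lowest library in DWYG-H replicate 1 and their highest in replicate 2.

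**Figure D5:**
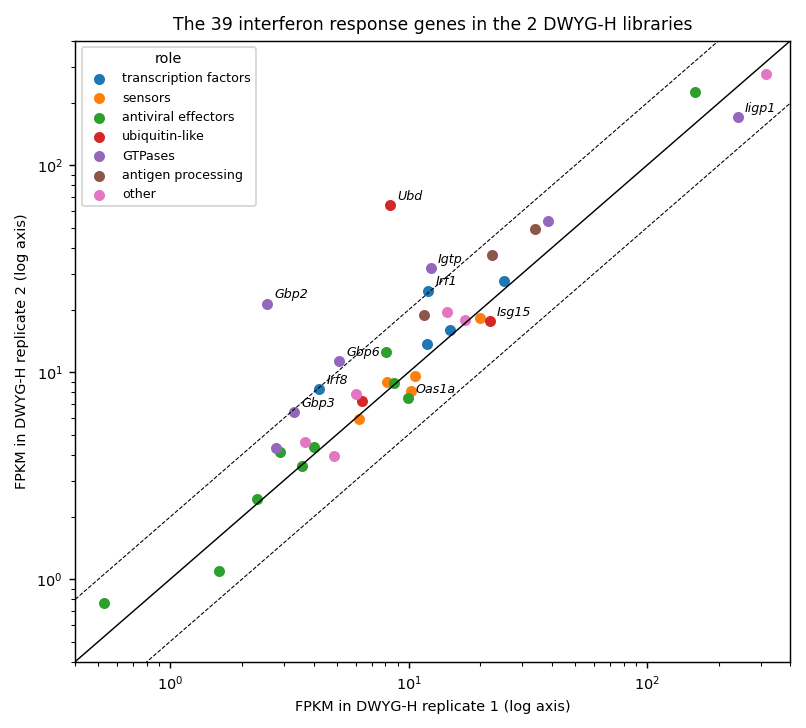
FPKM of interferon response genes in DWYG-H replicate 1 (x axis) and replicate 2 (y axis), both on log scales, with dashed lines at a ratio of 2 in either direction. Gbp2 and Ubd lie farthest above the line of equal values, and the sensors lie near it.

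Some other genes of the interferon gamma response were high in the same library. GTPases that were lower there than in DWYG-H replicate 1 included Iigp1 (171 against 240.3 FPKM) and Gm4951 (42.45 against 49.02). Cxcl9 measured 6.33 and 4.04 FPKM in the control livers, 7.12 and 4.31 in the model livers, 4.02 and 3.73 at the lower DWYG dose and 4.7 and 89.9 at the higher dose. Tgtp1, a GTPase, measured 20.6 there and 2.04 in the other DWYG-H liver, Gbp5 4.21 and 0.69 and Socs1 2.14 and 0.32. Ido1 was listed at 1.68 against 0. Cxcl10 measured 5.28 and 3.72 FPKM in the control livers, 49.9 and 9.48 in the model livers, 4.04 and 4.3 at the lower DWYG dose and 3.96 and 36.1 at the higher dose, so that model replicate 1 was higher still. T and NK cell markers summed to 35.3 FPKM in that liver and 10.4 in the other DWYG-H liver, with 4.53 to 9.29 in control, 9.96 to 14.7 in model and 9.72 to 13.9 in DWYG-M. Cd3g (5.70 against 0.83), Cd3e (3.15 against 0.67), Cd8a (2.82 against 0.43) and Nkg7 (8.59 against 2.03) were higher in replicate 2, as were 13 of the 15 markers in the table. The exceptions were the granzymes Gzma (2.03 against 2.51) and Gzmb (0.91 against 1.12). Only 5 of the 15 passed the filter of 1 FPKM in at least 2 libraries, and the ratio was over 2 for 3 of these. Other marker sums were also highest in replicate 2, namely B and plasma cells (40.3 against 25.7 FPKM) and conventional dendritic cells (12.3 against 6.86). Sums for cholangiocytes (285 against 241), macrophages and monocytes (412 against 390), Kupffer cells (252 against 241) and stellate cells and fibroblasts (194 against 178) were higher than in replicate 1. Those for endothelial cells (159 against 206), neutrophils (100.09 against 101.98) and hepatocytes were lower, though the median ratio over the 10 hepatocyte markers was 1.11. The plasmacytoid sum was lower mainly through Ly6d (136 against 369), and without it the DWYG-H sums were 6.91 and 7.09. The part of T and NK cells or of other cell types in the GTPase and Ubd values of this library was not tested.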

How the data were processed

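RNA from 8 mouse livers, 2 from each of 4 groups, was measured by sequencing of libraries made with the SMART-Seq mRNA LP kit, per the labels' protocols. The members and the gene lists were chosen with earlier results of these data known. Reads were assigned to GRCm39, according to the submitters' processing notes, and the sources used here name neither aligner nor counter and do not say whether strand was used. The authors deposited 1 table of 17164 genes that holds, per the file headers, a read count, FPKM, TPM and a normalized read count per library. Estimated counts are what the authors deposited in the read count columns, judging by the values, of which about 1 in 10 was not whole (within 0.005). Library totals lay between 17345627 and 19191382. FPKM, in which the authors scaled reads by gene length and library total, was deposited per the file headers. The deposited TPM values were used as an alternative scale. The normalized read counts, a signal that the authors scaled by library, were not tested here.

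For this report, estimated counts were rounded and tested with edgeR 4.0.16 (R 4.3.3) by its quasi-likelihood test with TMM scaling, for the 11606 genes with at least 1 FPKM in at least 2 libraries. One model of 4 groups over 8 libraries had 4 residual degrees of freedom and a common dispersion of 0.0377. P-values were adjusted by Benjamini-Hochberg over the 11606 genes within each of 6 comparisons, and a gene was called at an adjusted p under 0.05. Standard errors were derived from the F statistic, and 95% intervals from these with the moderated degrees of freedom. The test was run on simulated counts first. No test was run over the list as a whole. Alternatives were DESeq2 1.42.0, limma 3.58.1 on log2 values (pseudocounts of 1 and 0.1), other filters, a replicate block, only the groups compared, totals without Alb and Mup genes, and leaving out each library.

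Every library is given for members called in any comparison and for the 4 members with the smallest p in each, and a few others chosen after their values were seen (Iigp1, Igtp, Irf1 and Isg15). In each pathway list the 3 genes with the smallest p in model against control are named, and also the receptors, Ifng, Ifnb1, Sting1, Cgas, Socs1, Cxcl9 and Cxcl10. One gene that this rule names is not reported here. Genes that were high in DWYG-H replicate 2 were named after their values were seen. Counts are uncertain where near-identical copies share reads (the Oas1, Ifit, Gbp, Tgtp and class I MHC families), and where genes overlap. Promoter windows came from RefSeq on GRCm38.p6. They were matched by Entrez gene identifier and used for letters only.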

Additional observations from a re-analysis of the deposited data

How the results depend on the processing

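With 2 livers per group, single libraries set most of the counts. The number of members called between model and control ran from 2 to 18 when 1 library was left out, with medians of log2 fold change from 0.50 to 0.76. The corresponding counts were 0 to 1 for DWYG-M against control, 0 to 4 for DWYG-H against control (medians 0.50 to 0.81) and 0 to 1 between the doses. The median of DWYG-M against model ran from -0.27 to 0.057. In DWYG-H against model, Gbp2 ran from -0.61 without DWYG-H replicate 2 to 2.44 without replicate 1, and Ubd from -0.86 to 2.06. A fit of model and control alone called 9 members. On log2(FPKM + 1), log2(FPKM + 0.1) and log2(TPM + 1), the median gene lay 0.21, 0.25 and 0.50 higher in model than in control. limma on these scales gave member medians of 0.78, 0.88 and 1.09 in model against control. It called 20, 21 and 30 members there, against 23.2%, 24% and 46.9% of all genes. It called 11, 12 and 22 members in DWYG-M against control (medians 0.59, 0.69 and 0.81). In DWYG-H against control it called 16, 17 and 29, with medians of 0.80 on log2(FPKM + 0.1) and 1.00 on TPM. DESeq2 called 11 there. The cause of these differences was not tested. Every member called between treated and control livers under any of these settings was higher in the treated livers. The replicate block, which pairs libraries that share only a number in the labels, called 16, 5 and 10 members in model, DWYG-M and DWYG-H against control and 0 in the other comparisons. Deviations of same-numbered libraries correlated between -0.14 and 0.26.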
